A study of Mus musculus with 12 samples.

Results

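The genes described here were the 3 ligands of the transforming growth factor beta (TGF-beta) pathway (Tgfb1, Tgfb2 and Tgfb3), the type I, II and III receptors (Tgfbr1, Tgfbr2 and Tgfbr3, the last encoding betaglycan), endoglin (Eng) and the latent binding proteins Ltbp1, Ltbp2 and Ltbp3. They were found by matching the stable part of the Ensembl identifiers to these mouse symbols, and all 10 were present among the 56980 genes of the count matrix.

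TGF-beta is secreted as a dimer that stays bound to its own propeptide, and latent TGF-beta binding proteins tether this latent complex to the extracellular matrix until it is activated. Active ligand binds the type II receptor, which recruits and phosphorylates the type I receptor, and the type I receptor then phosphorylates SMAD2 and SMAD3. Betaglycan and endoglin are coreceptors that present or modulate ligand. In bone the matrix is a large store of latent TGF-beta, which takes part in the coupling of resorption to formation and in the recruitment of stromal progenitors.

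Bulk RNA-Seq was examined in 12 libraries of W-20 cells (W-20-17), a murine bone marrow stromal cell (BMSC) line, which formed 4 groups of 3. WT cells, and also Y428F cells that carry an introduced form of the Hippo pathway coactivator YAP, were each exposed for 2 h to 50 nM parathyroid hormone (PTH) or to vehicle (PBS). Library totals ranged from 17127897 to 19057319 counts. No label says that the 3 libraries of a group came from separate cultures, so p-values measure the spread between these libraries, which may be technical.

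The Y428F libraries were assigned by their titles, because their genotype entry reads WT. The study's account of the RNA-Seq names the mutant line YAP S381A/Y428F, which joins the tyrosine-to-phenylalanine change Y428F to S381A, a change known to stabilize YAP by removing a site of Hippo phosphorylation, while the titles give only Y428F. Its methods describe this line and one with Y428F alone, both made from Flag-tagged YAP plasmids with a CMV promoter and selected as clones with puromycin. No library from cells with introduced WT YAP or with S381A alone was analysed here, so either mutation, the extra YAP and other differences between the lines cannot be told apart. Of 10 BMSC markers, 8 were above 1 CPM (counts scaled to the depth of each library) in every library, with Col1a1 the most abundant, but Thy1 had 0 counts in all 12 libraries and Nt5e had 0 to 2. Under each treatment all 8 tested markers differed between the lines at an adjusted p under 0.05 (edgeR), beside 45.1% of all genes with vehicle and 45.7% with PTH. In Y428F cells 6 were lower (Pdgfra, Pdgfrb, Vcam1, Cxcl12, Itgb1 and Col1a1) and 2 were higher (Cd44 and Ly6a). With vehicle, for example, Pdgfrb was at 217 ± 8.24 CPM against 618 ± 92.1 CPM (SD, n = 3), and Ly6a was at 324 against 138 CPM.

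All members but Ltbp2 were well measured, with counts per library from a low of 327 for Tgfb2 to a high of 21973 for Tgfbr2. Ltbp2 had 0 to 4 counts per library and 18 in all, so no change in it was detectable at this depth, and no fold is given. It passed the filter of at least 10 counts in the fit of all 12 libraries but not in the fit of the 6 WT libraries.

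Positions are those of GRCm39 (GENCODE vM39), and levels of different members are compared only as CPM per kilobase of annotated exon. Markers of cell types are given in CPM, with no correction for length. Among the members, the most abundant transcript in WT cells with vehicle was Tgfbr2 (ENSMUSG00000032440.14, chr9:115913361-116004800), at 129 ± 4.23 CPM per kilobase (SD, n = 3). Eng (ENSMUSG00000026814.17, chr2:32535543-32574661) followed at 64.3 ± 3.64 and Ltbp3 (ENSMUSG00000024940.12, chr19:5790932-5808669) at 54.1 ± 8.13, and these neighbors did not differ beyond their SDs. Next came Tgfbr3 (ENSMUSG00000029287.15, chr5:107249402-107437623) at 27.9 ± 2.42, Ltbp1 (ENSMUSG00000001870.17, chr17:75312519-75699507) at 21.1 ± 1.74 and Tgfb1 (ENSMUSG00000002603.16, chr7:25386390-25404506) at 17.5 ± 1.83 CPM per kilobase. The ranges of 1 SD around Ltbp1 and Tgfb1 just met. The lowest of the measured levels were those of Tgfb3 (ENSMUSG00000021253.8, chr12:86102756-86126301) at 11.3 ± 0.819, Tgfbr1 (ENSMUSG00000007613.16, chr4:47353134-47414931) at 4.95 ± 0.328 and Tgfb2 (ENSMUSG00000039239.15, chr1:186354985-186438294) at 3.14 ± 0.325. Ltbp2 (ENSMUSG00000002020.16, chr12:84829986-84923306) was at 0.0046 CPM per kilobase. The type II receptor thus stood far above its type I partner and above each ligand. The order depends on the length used. With the longest transcript in place of all exons, Ltbp3 (88.6) stood above Eng (80.4), and Tgfb1 (34.6) stood above Ltbp1 (33.7) and Tgfbr3 (31.4).

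**Figure D1:**
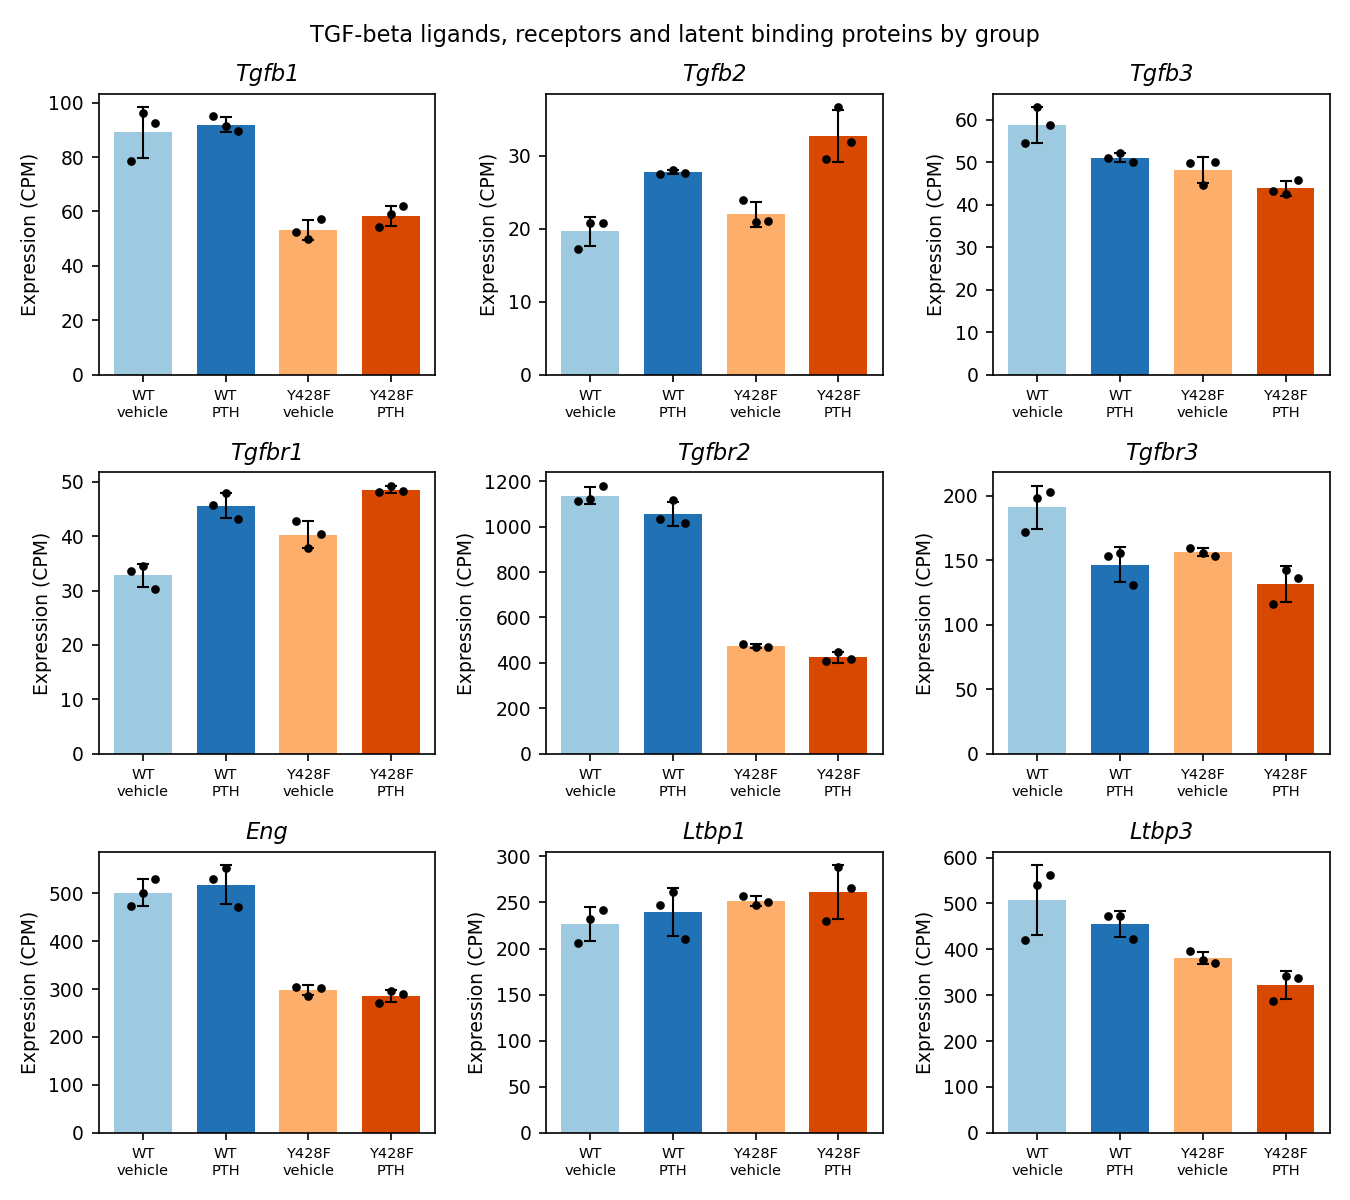
Expression in CPM (vertical axis, starting at 0, with its own scale in each panel) of the 9 measured members in WT and Y428F cells with vehicle or PTH; points are libraries, bars group means and lines SDs (n = 3). Tgfb2 and Tgfbr1 are higher with PTH in both lines, and Tgfbr2 falls from 1137 CPM in WT cells with vehicle to 474 CPM in Y428F cells with vehicle.

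PTH changed few of the members, and the same 3 were called in both lines. Tgfb2 and Tgfbr1 rose, and Tgfbr3 fell. In WT cells 3 of 9 tested members passed an adjusted p of 0.05, beside 11.8% of all genes tested (6.88% higher and 4.91% lower), and in Y428F cells 3 of 10 passed, beside 12.4% (6.61% higher and 5.78% lower). Adjusted p-values here and below come from the quasi-likelihood test of edgeR, adjusted by Benjamini-Hochberg over all genes tested.

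Promoter sequence is shown for the ligand and the receptor that rose together, as the part of RefSeq's window upstream of both the RefSeq and the GENCODE start, and for 2 short sites that hold a cAMP response element or its half-site, a motif through which PTH is known to act. RefSeq windows of 250 bases before the start (table build GRCm38.p6, placed on GRCm39 by exact match) matched 8 of the 10 members, with 10 windows in all. Tgfb3 and Tgfbr3 had none.
Tgfb2 (chr1:186438295-186438436, minus strand): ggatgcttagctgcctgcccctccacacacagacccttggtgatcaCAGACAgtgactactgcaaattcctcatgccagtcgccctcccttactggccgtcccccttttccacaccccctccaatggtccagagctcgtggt
Tgfbr1 (chr4:47352972-47353133, plus strand): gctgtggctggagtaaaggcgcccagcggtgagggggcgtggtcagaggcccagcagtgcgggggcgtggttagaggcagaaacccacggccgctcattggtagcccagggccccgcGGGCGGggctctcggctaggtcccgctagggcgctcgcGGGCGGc
Tgfb2 site (chr1:186438241-186438270, minus strand): gtaatcctagcgCGTCActttgttgaaggc
Ltbp1 site (chr17:75312440-75312469, plus strand): gatttgctgccTGACGTCAcgtctgctgca
Capitals mark CAGACA (a SMAD-type motif) in the first, GGGCGG (a GC box) in the second, CGTCA (the cAMP response element half-site TGACG read on the other strand) in the third, and the full element TGACGTCA in the fourth. Among all 32851 windows searched on both strands, 1.55% held TGACGTCA, 17.8% TGACG (which the full element also contains), 17.1% CAGACA and 32.7% GGGCGG. The only full element among the members' windows was that of Ltbp1, 73 to 66 bases before its start, and Ltbp1 did not pass the threshold with PTH in either line. The half-site of Tgfb2 lay 72 to 68 bases before the RefSeq start, which is downstream of the GENCODE start, so by GENCODE it is within the transcript. No member window held the AP-1 motif TGANTCA or the TEAD motif GGAATG, which were in 6.75% and 12.6% of all windows. These are matches of letters and not measured binding.

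Of the ligands, Tgfb2 responded. In WT cells it was at 17.3, 20.8 and 20.8 CPM with vehicle and at 27.5, 28.0 and 27.7 CPM with PTH. In Y428F cells it was at 24.0, 20.9 and 21.1 CPM with vehicle and at 29.6, 36.7 and 31.8 CPM with PTH. Within each line no vehicle library reached the lowest PTH library. The rise was 1.42-fold in WT cells (log2 0.51, SE 0.087, adjusted p = 0.00203) and 1.49-fold in Y428F cells (log2 0.57, SE 0.094, adjusted p = 0.000305). Tgfb2 encodes the ligand that relies most on betaglycan for binding to the type II receptor.

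Tgfb1, the ligand most abundant in bone matrix, was at 89.1 ± 9.31 CPM with vehicle and 91.9 ± 2.78 CPM with PTH in WT cells (SD, n = 3), and at 53.1 ± 3.64 and 58.4 ± 3.78 CPM in Y428F cells. Neither response passed the threshold. The 95% interval of the log2 response was -0.11 to 0.21 in WT cells and -0.021 to 0.30 in Y428F cells. Tgfb3 was at 54.5, 63.0 and 58.7 CPM with vehicle and at 51.1, 52.2 and 50.0 CPM with PTH in WT cells. Those libraries did not overlap, yet the log2 difference of -0.19 had an adjusted p of 0.111. It was called with library totals (log2 -0.25, adjusted p = 0.0414) and without the first vehicle library (adjusted p = 0.0470). Libraries of the 2 treatments did not overlap for 4 members in WT cells and for 5 in Y428F cells, beside 29.0% and 30.8% of all genes.

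Tgfbr1, the type I receptor kinase, was the receptor that rose. In WT cells it was at 33.5, 34.5 and 30.3 CPM with vehicle and at 45.6, 47.9 and 43.2 CPM with PTH. In Y428F cells it was at 42.8, 37.8 and 40.3 CPM with vehicle and at 48.1, 49.2 and 48.3 CPM with PTH. No PTH library fell within the range of the vehicle libraries. The rise was 1.40-fold in WT cells (log2 0.48, SE 0.080, adjusted p = 0.00162) and 1.21-fold in Y428F cells (log2 0.27, SE 0.070, adjusted p = 0.0136). With a correction for GC content the latter was 0.19 with an adjusted p of 0.0914, and without the second Y428F vehicle library it was 0.22 with an adjusted p of 0.0890.

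Tgfbr3, the coreceptor betaglycan, moved the other way. In WT cells it was at 172, 199 and 203 CPM with vehicle and at 153, 156 and 131 CPM with PTH. In Y428F cells it was at 159, 156 and 153 CPM with vehicle and at 116, 142 and 136 CPM with PTH. Again the treatments did not overlap within a line. The fall was 1.30-fold in WT cells (log2 -0.38, SE 0.078, adjusted p = 0.00673) and 1.19-fold in Y428F cells (log2 -0.25, SE 0.079, adjusted p = 0.0449). The call in Y428F cells was lost in 8 of 12 fits that left out 1 library, with adjusted p-values from 0.0190 to 0.202.

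The type II receptor Tgfbr2 was at 1137 ± 37.2 CPM with vehicle and 1055 ± 52.5 CPM with PTH in WT cells, and at 474 ± 8.32 and 424 ± 22.7 CPM in Y428F cells (SD, n = 3). The log2 response was -0.10 (adjusted p = 0.387) in WT cells and -0.16 (adjusted p = 0.0714) in Y428F cells, where the libraries did not overlap. The latter was called with DESeq2 (adjusted p = 0.0170), under 5 other alternatives (0.0134 to 0.0452) and in 3 of 12 fits without 1 library. Eng was at 501 ± 28.4 and 518 ± 41.3 CPM in WT cells, and its response did not pass the threshold in either line (log2 0.054 and -0.058). Ltbp1 was at 206, 232 and 242 CPM with vehicle and at 247, 261 and 210 CPM with PTH in WT cells, which overlap.

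Ltbp3, which is needed for normal secretion of latent TGF-beta and for skeletal growth, was at 421, 540 and 563 CPM with vehicle and at 472, 472 and 423 CPM with PTH in WT cells. The first vehicle library was well below the other two, and was also the lowest of its group for every other measured member except Tgfbr1. Without it, 5 members were called in WT cells in place of 3. In Y428F cells Ltbp3 was at 396, 377 and 371 CPM with vehicle and at 287, 341 and 337 CPM with PTH, which do not overlap, with a log2 difference of -0.24 and an adjusted p of 0.0777. This fall was called with DESeq2 (adjusted p = 0.0433) and under 5 other alternatives, with adjusted p-values from 0.00278 to 0.0468.

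**Figure D2:**
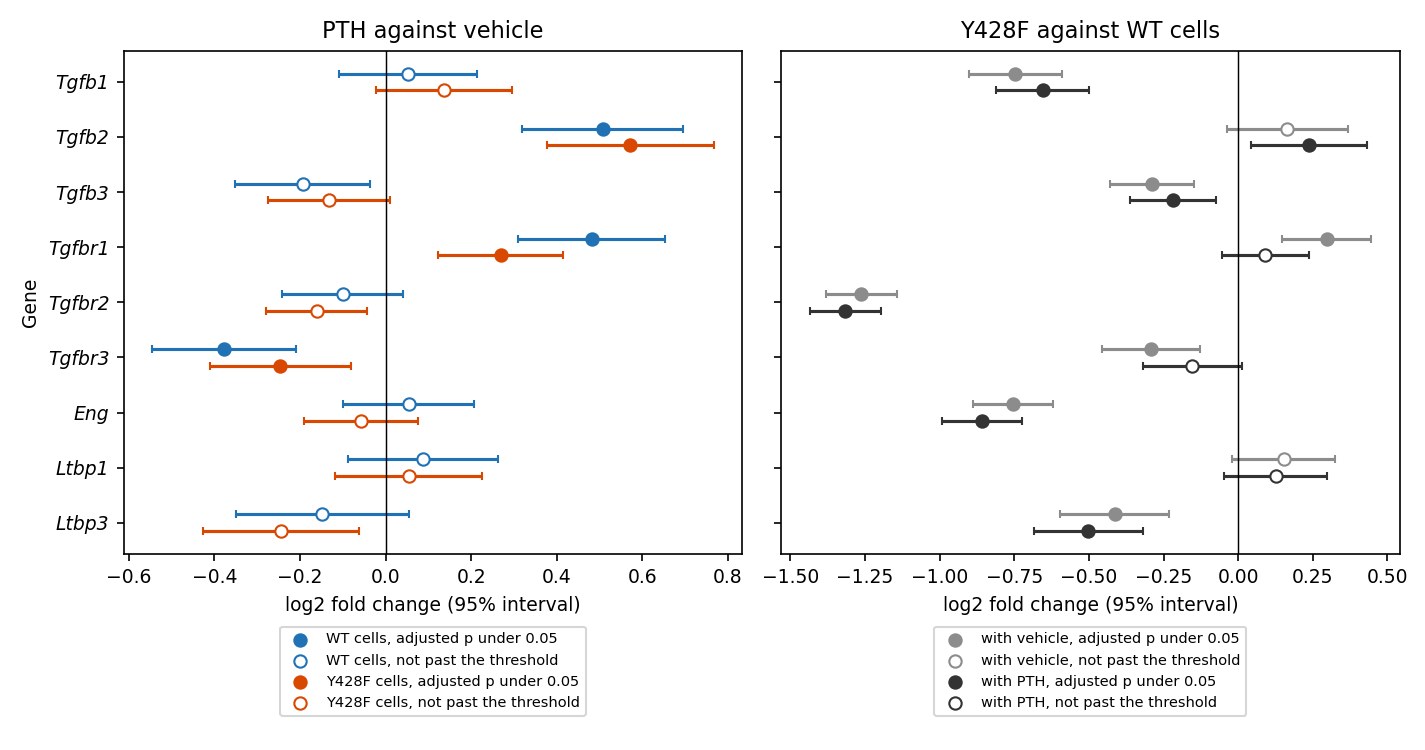
Log2 fold change (horizontal axis) with 95% interval for each measured member, PTH against vehicle in each line on the left and Y428F against WT cells under each treatment on the right; filled points have an adjusted p under 0.05. Tgfb2, Tgfbr1 and Tgfbr3 are filled in both lines on the left, and Tgfbr2 is the lowest on the right at -1.26 and -1.32.

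The responses of the members did not differ detectably between the lines. No member passed the threshold for the difference in PTH response, beside 0.413% of all genes (0.170% higher and 0.243% lower), in edgeR or in DESeq2, and none had an unadjusted p under 0.05 in edgeR, beside 7.05% of all genes. The closest was Tgfbr1, whose log2 response was smaller in Y428F cells by -0.21 (95% interval -0.41 to 0.00205, unadjusted p = 0.0521, adjusted p = 0.718). For Tgfb2 the difference was 0.072 (-0.21 to 0.35) and for Tgfbr3 0.14 (-0.093 to 0.37). These intervals are as wide as some of the responses themselves, so equal responses are not shown.

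Larger differences lay between the lines. With vehicle, 6 of the 10 members were lower and 1 was higher in Y428F cells, beside 45.1% of all genes called (22.4% higher and 22.7% lower). With PTH, 5 were lower and 1 was higher, beside 45.7% (22.8% higher and 23.0% lower). Tgfb1, Tgfb3, Tgfbr2, Eng and Ltbp3 were lower under both treatments. The median log2 difference of the members was -0.29 with vehicle and -0.19 with PTH, and that of all genes tested 0.012 and 0.019. The libraries of the lines did not overlap for 9 members with vehicle and for 7 with PTH, beside 53.8% and 51.9% of all genes. Each of these comparisons shares its libraries with the responses to PTH above, so the values of a member in them are not independent.

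Tgfbr2 differed most. Its vehicle libraries were at 1110, 1120 and 1179 CPM in WT cells and at 484, 470 and 469 CPM in Y428F cells. Its PTH libraries were at 1035, 1115 and 1016 CPM in WT cells and at 406, 449 and 416 CPM in Y428F cells. The highest Y428F library was thus less than any WT library under either treatment. The level was 2.40-fold lower with vehicle (log2 -1.26, SE 0.057, adjusted p = 3.05e-13) and 2.49-fold lower with PTH (log2 -1.32, SE 0.057, adjusted p = 1.63e-13). Tgfbr2 lies on chromosome 9, where the median log2 difference of 572 genes was -0.24 with vehicle and 76.9% of them were lower. Tgfbr2 was below the range of the middle 50% of those genes (-0.54 to -0.016), and the part of the chromosome-wide shift in its difference was not tested.

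Eng and Tgfb1 were lower by similar amounts. With vehicle, Eng was at 473, 500 and 530 CPM in WT cells and at 304, 285 and 302 CPM in Y428F cells, a level 1.69-fold lower (log2 -0.75, SE 0.064, adjusted p = 4.70e-09). With PTH it was 1.81-fold lower (log2 -0.86, adjusted p = 6.97e-10). With vehicle, Tgfb1 was at 78.5, 96.1 and 92.7 CPM in WT cells and at 52.4, 49.9 and 57.1 CPM in Y428F cells, a level 1.68-fold lower (log2 -0.75, SE 0.075, adjusted p = 4.98e-08). With PTH it was 1.57-fold lower (log2 -0.65, adjusted p = 3.06e-07). Neither gene had overlapping libraries between the lines. The medians of their chromosomes, 2 and 7, were within 0.06 of zero on the log2 scale.

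Ltbp3 was 1.33-fold lower in Y428F cells with vehicle (log2 -0.41, SE 0.087, adjusted p = 0.000528) and 1.42-fold lower with PTH (log2 -0.50, adjusted p = 6.91e-05). Its chromosome, 19, shifted the other way, with a median of 0.12. Tgfb3 was lower by smaller amounts, log2 -0.29 with vehicle (adjusted p = 0.00142) and -0.22 with PTH (adjusted p = 0.0127). The call with PTH was lost with library totals (log2 -0.15, adjusted p = 0.0745) and with a GC correction (log2 -0.16, adjusted p = 0.0547). Tgfbr3 was lower with vehicle (log2 -0.29, adjusted p = 0.00406), and with PTH its libraries overlapped (log2 -0.15, adjusted p = 0.122). The latter was called in 2 of 12 fits without 1 library, and its log2 difference in those 12 fits ran from -0.23 to -0.083.

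Tgfbr1 and Tgfb2 went the other way from most members. Tgfbr1 was 1.23-fold higher in Y428F cells with vehicle (log2 0.30, SE 0.071, adjusted p = 0.00173), and with PTH the log2 difference was 0.091 (adjusted p = 0.310). Tgfb2 was 1.18-fold higher with PTH (log2 0.24, SE 0.093, adjusted p = 0.0431), a call that was lost in 8 of 12 fits without 1 library, and with vehicle the log2 difference was 0.16 (adjusted p = 0.182). Ltbp1 did not pass the threshold under either treatment (log2 0.15 and 0.13). It was called higher in Y428F cells under both treatments with library totals (adjusted p = 0.0315 with vehicle and 0.0445 with PTH), an exon length correction (0.0162 and 0.0218) or a GC correction (0.0238 and 0.0308), and with vehicle also with no filter on low counts (0.0451).

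Some members share their locus with a gene on the other strand, and the strand setting of the counting is not given in the sources used here. Fpgs overlaps Eng and had 8879 counts over 12 libraries against 85823 for Eng, and Ttll5 overlaps Tgfb3 (3161 against 10882). Reads from shared bases cannot be told apart, so the values of these members are uncertain to that extent. With vehicle the log2 line differences of these neighbors were 0.19 for Fpgs and 0.68 for Ttll5. The lncRNA Gm35546 overlaps Tgfb2, with 385 counts against 5485. Its log2 response to PTH was 2.44 in WT cells and 1.74 in Y428F cells. Its log2 line difference was 1.93 with vehicle and 1.22 with PTH.

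**Figure D3:**
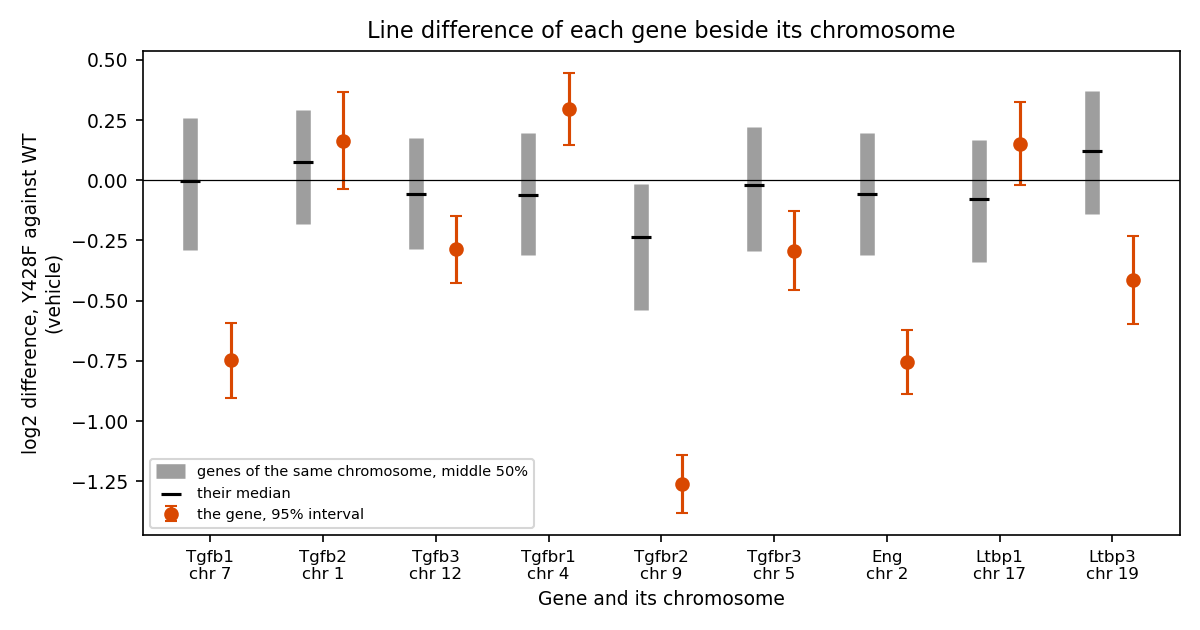
Log2 difference between Y428F and WT cells with vehicle for each measured member (orange point, 95% interval) beside the median (black bar) and middle 50% (gray) of genes averaging 4 CPM or more on the same chromosome. The chromosome 9 genes are shifted to a median of -0.24, and Tgfbr2 lies further down at -1.26.

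The make-up of the ligand and receptor transcripts is described per kilobase and with no test, since these quantities were chosen after the values were seen. Tgfb2 made up 9.82% ± 0.273 of the summed ligand level with vehicle and 13.7% ± 0.317 with PTH in WT cells, and 15.2% ± 1.14 and 20.8% ± 1.85 in Y428F cells (SD, n = 3). Its share was higher in each PTH library than in any vehicle library of that line. Tgfb1 made up 54.8% and 55.9% in WT cells and 45.0% and 45.7% in Y428F cells. The summed ligand level was 31.9 ± 2.93 and 32.3 ± 0.626 CPM per kilobase in WT cells and 23.2 ± 1.32 and 25.1 ± 1.23 in Y428F cells. These values depend on the lengths used. With the longest transcript the shares of Tgfb2 were 7.05%, 9.83%, 11.4% and 15.6% in the same order of groups, and the summed levels 52.4, 53.2, 36.3 and 39.4 CPM per kilobase.

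The ratio of Tgfbr2 to Tgfbr1 was 26.2 ± 2.65 in WT cells with vehicle, 17.4 ± 0.324 in WT cells with PTH, 8.88 ± 0.440 in Y428F cells with vehicle and 6.58 ± 0.267 in Y428F cells with PTH (SD, n = 3). No library of one group fell within the range of another. Per kilobase of all exons, Tgfbr2 transcripts exceeded those of Tgfbr1 in every library, by 6.36-fold at the least. With the longest transcript the mean ratios were 24.2, 16.1, 8.20 and 6.07 in the same order of groups. The ratio of Ltbp3 to Ltbp1 was 2.56, 2.19, 1.73 and 1.41 in the same order. These are ratios of transcripts and do not give those of receptors at the surface.

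**Figure D4:**
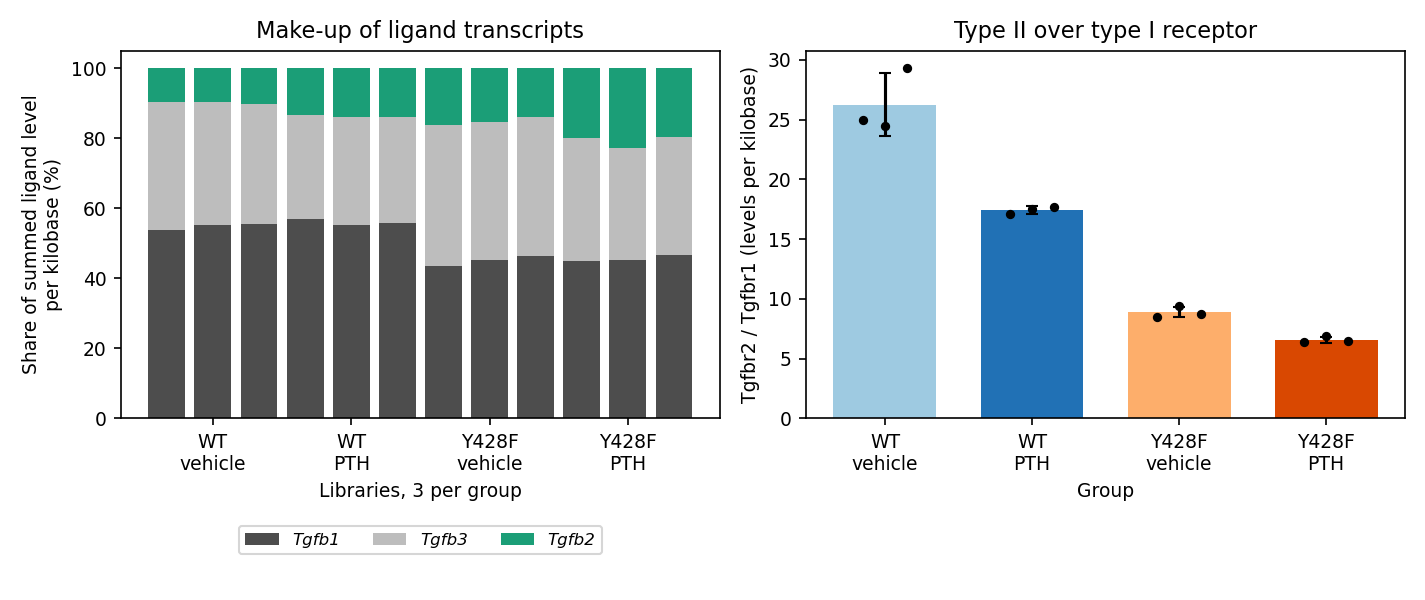
Left, share (%) of Tgfb1, Tgfb3 and Tgfb2 in the summed ligand level per kilobase, 1 bar per library. Right, ratio of the Tgfbr2 to the Tgfbr1 level per kilobase by group (bars are means, points libraries, lines SDs, n = 3), which steps down from 26.2 in WT cells with vehicle to 6.58 in Y428F cells with PTH.

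Across the 12 libraries the members followed different genes. By Pearson r of log2 CPM over 11217 genes, the 2 most alike are named for each member but Ltbp1, for which 1 is given. For Tgfb1 they were Sox9 (r = 0.989) and Mef2d (0.987), for Tgfb2 Ets2 (0.982) and Fmn1 (0.970), and for Tgfb3 Inpp5e (0.970) and Stat5a (0.963). Among the receptors they were Ppp3r1 (0.985) and Fbxo30 (0.982) for Tgfbr1, Cercam (0.999) and Irgm2 (0.998) for Tgfbr2, Zmynd8 (0.976) and Zmiz1 (0.965) for Tgfbr3, and App (0.997) and Tapbp (0.996) for Eng. Ltbp3 was most like Mroh1 (0.989) and Sh3pxd2b (0.988), and Ltbp1 most like Aqr (0.960). The points are libraries of 2 lines and 2 treatments, so each r mostly reflects the 4 group means.

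Genes that handle the latent complex were examined next, from a list of 22 of which 19 were tested. With PTH, 3 were called in WT cells, all higher, and in Y428F cells 3 rose and 2 fell, beside 11.8% and 12.4% of all genes called, so the count in WT cells was near the background. Thbs1 encodes thrombospondin 1, an activator of latent TGF-beta. In WT cells it rose from 2928 ± 292 to 7336 ± 807 CPM (log2 1.33, adjusted p = 1.46e-06), and in Y428F cells it moved from 1894 ± 116 to 3463 ± 582 CPM (log2 0.87, adjusted p = 5.94e-06). Lrrc32, which encodes the cell surface anchor GARP, rose in both lines (log2 0.60 and 0.31), and its call in Y428F cells was lost in 3 of 12 fits without 1 library. Adamts1, a secreted protease gene, rose in WT cells (log2 0.73, adjusted p = 7.42e-05), and its log2 response in Y428F cells was 0.16 (adjusted p = 0.198). Emilin1, whose product restrains processing of the ligand precursor, fell in Y428F cells (log2 -0.30, adjusted p = 0.00874), as did Bmp1 (log2 -0.24, adjusted p = 0.0230), a protease that releases latent complexes from the matrix. In WT cells the log2 response of each was -0.14, not past the threshold, and neither passed it for the difference in response. The Bmp1 call was lost with a GC correction (log2 -0.17, adjusted p = 0.0727) and in 4 of 12 fits without 1 library.

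Between the lines, 2 genes of that list were higher and 12 lower in Y428F cells with vehicle, and 2 higher and 14 lower with PTH, beside 45.1% and 45.7% of all genes called. The list's median log2 difference was -0.53 with vehicle, beside 0.012 for all genes. Ltbp4, the remaining latent binding protein gene, was at 17.1 CPM against 50.8 CPM (log2 -1.57, adjusted p = 3.80e-10). Mmp9, a gelatinase gene, was at 2.45 against 11.0 CPM (log2 -2.16). Itgb8, the beta subunit of an integrin that activates latent TGF-beta, was at 10.3 against 1.80 CPM (log2 2.50, adjusted p = 9.38e-10). Plau, encoding the plasminogen activator urokinase, was at 3.99 against 0.380 CPM (log2 3.37, adjusted p = 2.71e-09). Ltbp4 and Ltbp3 were thus both lower, and Ltbp1 did not pass the threshold in the same test.

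Of 18 receptor partners and inhibitors, 17 were tested in WT cells and 18 in the other comparisons. With PTH, 2 were called in WT cells and 5 in Y428F cells, all of them higher, beside 11.8% and 12.4% of all genes called. The count in WT cells was at that share. Smurf1 and Smurf2, ubiquitin ligase genes whose products direct degradation of the type I receptor, rose in both lines (log2 0.33 and 0.26 in WT cells, 0.31 and 0.27 in Y428F cells). In WT cells neither was called with library totals in place of TMM factors (adjusted p = 0.0572 and 0.0639), and the calls were lost in 2 and 4 of 6 fits without 1 library. In Y428F cells the Smurf1 call was lost in 2 of 12 such fits. Pmepa1, a negative regulator of SMAD2 and SMAD3, rose in Y428F cells (log2 0.53, adjusted p = 0.00136), as did Dab2 and Acvr1 (both log2 0.28). In WT cells the log2 responses of Pmepa1, Dab2 and Acvr1 were 0.12, 0.013 and 0.18, and none passed the threshold. For the difference in response 0 of the 18 genes passed it, beside 0.413% of all genes. The Dab2 call was lost with a GC correction (log2 0.21, adjusted p = 0.0903) and in 2 of 12 fits without 1 library, and the Acvr1 call in 4 of 12 such fits. Between the lines with vehicle 6 were higher and 6 lower, beside 45.1% of all genes called. With PTH 5 were higher and 4 lower, a count near the 45.7% called among all genes. Biglycan (Bgn), a matrix proteoglycan that binds TGF-beta, was at 1171 against 2563 CPM with vehicle (log2 -1.13, adjusted p = 1.27e-10). Nedd4l and Usp15, which encode a ubiquitin ligase and a deubiquitinase acting on the receptor complex, were higher (log2 0.73 and 0.68).

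In the SMAD2/3 branch all 8 listed genes were tested. In WT cells Smad2 (log2 0.45, adjusted p = 0.000322) and Smad7 (log2 0.28, adjusted p = 0.0347) rose with PTH. In Y428F cells 5 rose, Smad2 among them (log2 0.24, adjusted p = 0.00475), and 1 fell. The shares called among all genes were 11.8% and 12.4%. Smad7, whose product blocks the type I receptor, rose from 23.3 to 37.7 CPM there (log2 0.70, adjusted p = 6.27e-06), Skil, a SMAD corepressor gene, rose by log2 0.43, and Smad3 fell (log2 -0.25, adjusted p = 0.0138), a call lost in 2 of 12 fits without 1 library. The Smad7 call in WT cells was lost with DESeq2 (adjusted p = 0.0747), library totals (0.0817) or the replicate block (0.0686). It was also lost in 4 of 6 fits without 1 library. For the difference in response 0 of the 8 genes passed the threshold in edgeR, beside 0.413% of all genes, and 1 did with DESeq2. Between the lines with vehicle 3 were higher and 4 lower, beside 45.1% of all genes called. Smad3, on which much of the transcriptional response relies, was at 123 against 182 CPM with vehicle (log2 -0.57, adjusted p = 2.76e-07) and at 103 against 179 CPM with PTH (log2 -0.79, adjusted p = 2.74e-09).

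A list of 28 genes known to respond to TGF-beta, 27 of which were tested, was used to describe transcripts downstream. Many of them also answer to other inputs, among them YAP for Ccn2 and serum response factor for Acta2, Tagln and Cnn1, so the list does not isolate TGF-beta signaling. With PTH, 8 rose and 4 fell in WT cells, and 10 rose and 4 fell in Y428F cells, beside the 11.8% and 12.4% of all genes called in these comparisons. The median log2 response was 0.0050 in WT cells and 0.15 in Y428F cells, beside -0.015 and -0.0067 for all genes. Ccn2, encoding connective tissue growth factor, rose in WT cells from 5.22 to 20.6 CPM (log2 1.99, adjusted p = 6.41e-07) and in Y428F cells from 18.9 to 77.9 CPM (log2 2.04, adjusted p = 5.01e-11). Its response did not differ detectably between the lines (difference 0.058, 95% interval -0.29 to 0.41).

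Some smooth muscle type genes of the list rose less in Y428F cells. Acta2, encoding smooth muscle actin, rose in WT cells from 107 ± 15.8 to 487 ± 6.10 CPM and in Y428F cells from 129 ± 7.49 to 290 ± 17.1 CPM (SD, n = 3; log2 2.19 and 1.17). The difference in response was -1.02 (SE 0.11, adjusted p = 7.34e-05). Cnn1, encoding calponin 1, rose from 9.65 to 39.4 CPM and from 8.31 to 13.4 CPM, with a difference of -1.33 (SE 0.16, adjusted p = 0.000222). In all, 7 target genes passed the threshold for the difference, 2 higher and 5 lower in Y428F cells, beside the 0.413% of all genes given above. Bhlhe40 and Junb, transcription factor genes, were the 2 with the larger response in Y428F cells (differences 0.61 and 0.69). The calls of Acta2, Cnn1 and Bhlhe40 held in each fit without 1 library, while that of Tagln was lost in 9 of 12, Tpm1 in 8, Junb in 6 and Tgfb1i1 in 1.

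**Figure D5:**
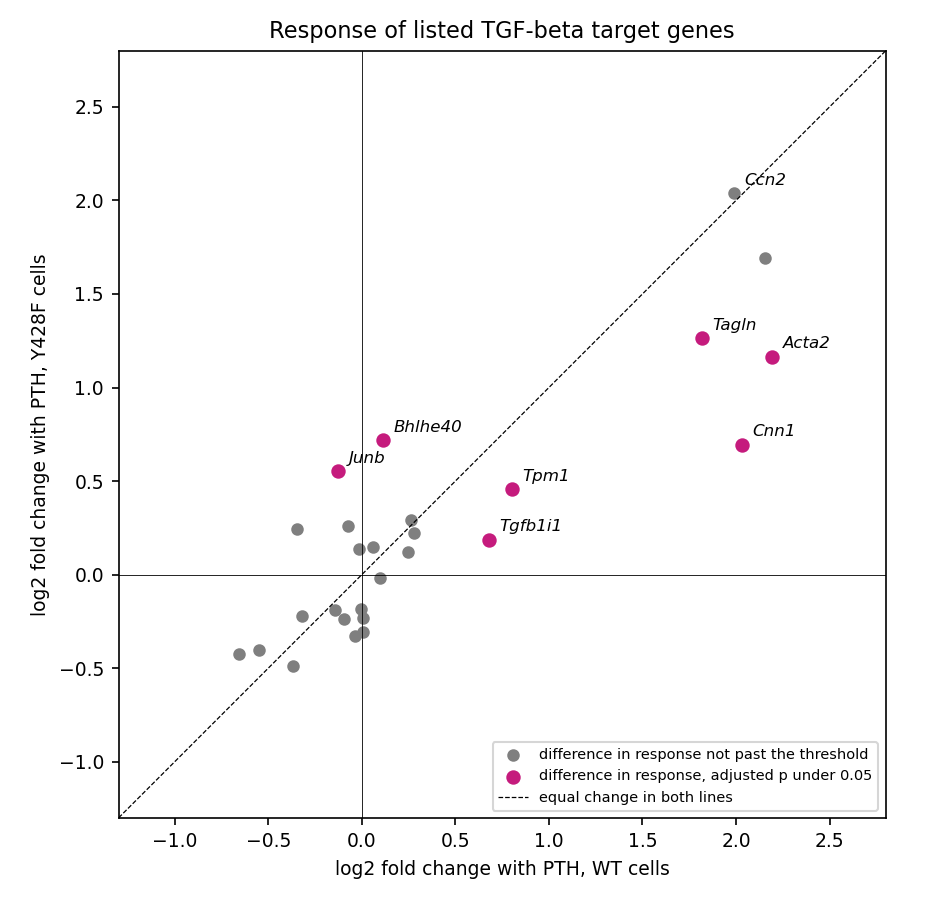
Log2 response to PTH of the 27 tested TGF-beta target genes in WT cells (horizontal axis) and in Y428F cells (vertical axis); the dashed line marks equal responses, and magenta points passed the threshold for the difference. Acta2, Cnn1, Tagln, Tpm1 and Tgfb1i1 lie below the line, Junb and Bhlhe40 above it, and Ccn2 close to it.

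Between the lines 9 target genes were higher and 14 lower in Y428F cells with vehicle, and 8 higher and 13 lower with PTH, beside 45.1% and 45.7% of all genes. Fibrillar collagen Col3a1 was at 203 against 836 CPM with vehicle (log2 -2.04, adjusted p = 1.76e-12) and at 164 against 835 CPM with PTH (log2 -2.35, adjusted p = 2.47e-13). Ccn2 and the collagen crosslinking enzyme Lox were higher with vehicle (log2 1.86 and 1.00). Genes regarded as targets of one pathway thus stood on both sides of zero.

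Markers of other cell types were low. Summed over 6 endothelial markers, WT libraries reached 2.45 to 4.36 CPM and Y428F libraries 7.16 to 11.6 CPM, the latter with Cdh5 the most abundant (7.95 CPM with vehicle, against 0.810 CPM in WT cells). Vwf went the other way, at 1.18 CPM in Y428F cells and 2.37 CPM in WT cells with vehicle, and Pecam1, Kdr and Emcn had at most 6 counts in any library. Endoglin is itself high in endothelium, and the part of endothelial transcripts in its level was not tested. The 6 haematopoietic markers summed to at most 2.50 CPM in WT and 7.58 CPM in Y428F libraries, led by Ptprc and Lyz2. The 4 epithelial markers reached 4.82 CPM in Y428F cells, nearly all of it Krt8, with Epcam at 0. The 5 osteoblast markers stayed at or below 0.564 CPM in every library. Of the 5 adipocyte markers, only Fabp4 was above 1 CPM, with a mean of 26.9 CPM in WT cells given vehicle and 6.57 CPM in the Y428F cells, and Adipoq had 0 counts. The summed level of the 10 BMSC markers was 9358 to 10713 CPM in WT and 7870 to 8396 CPM in Y428F libraries with vehicle, and 9066 to 10078 CPM and 6054 to 7387 CPM with PTH. In Y428F cells every PTH library was thus below the vehicle range. The largest part of this sum was Col1a1, with means of 5455 CPM with vehicle and 4339 CPM with PTH in Y428F cells. There the means of Pdgfra, Pdgfrb, Vcam1 and Ly6a were also lower with PTH. Those of Itgb1 (1212 and 1314 CPM), Cxcl12 (358 and 372 CPM) and Cd44 (135 and 167 CPM) were higher, so the sum does not stand for each marker. With PTH, Pdgfra fell in both lines (log2 -0.59, adjusted p = 0.00146 in WT cells and log2 -0.73, adjusted p = 7.17e-05 in Y428F cells), Cd44 rose in both (log2 0.34 and 0.31), and Col1a1 fell in Y428F cells (log2 -0.33, adjusted p = 0.0218). The other 5 of the 8 tested BMSC markers did not pass the threshold in either line. The part of these shifts in the line differences and PTH responses of the members was not tested, and in bulk RNA fewer cells of a type and less RNA per cell cannot be told apart.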

How the data were processed

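The 12 W-20 libraries were sequenced after poly-A selection. According to the methods and labels, the authors used STAR 2.7.10b for alignment to GRCm39 (GENCODE basic annotation) and RSEM for quantification. Their deposited values are expected counts per gene, with no scaling. Strandedness is not given in the sources used here. The counts were rounded and tested with edgeR 4.0.16 (glmQLFit, glmQLFTest, TMM) under R 4.3.3. Genes needed 10 or more counts in all, which left 15583 for the response of WT cells (6 WT libraries) and 17691 for the other 4 comparisons (12 libraries). Benjamini-Hochberg adjustment was over all genes tested, and a gene was called at an adjusted p under 0.05. SEs were derived from the F statistic. CPM used TMM factors over 12 libraries. The named genes were all 10 members and, per list and comparison, up to 4 called genes with the largest change and a mean of at least 2 CPM, with all genes called for the difference, and Smurf2 in Y428F cells, added after their values were seen. Members and lists were chosen with earlier results of these data known. Lengths and positions came from GENCODE vM39, which matched 56236 of 56980 identifiers by their stable part. Alternatives were DESeq2 1.42.0, other normalizations, filters, limits and corrections, a replicate block, and each library left out. The tests were tried on simulated counts. Some genes that this rule would name are not reported here.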

Additional observations from a re-analysis of the deposited data

Results flagged for a closer look

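None of the 10 ligand, receptor and binding protein genes stood out for a difference in PTH response between the lines. In the wider pathway lists 8 genes did, since a test of the difference itself (edgeR's quasi-likelihood test, Benjamini-Hochberg adjustment over 17691 genes) passed an adjusted p of 0.05. The largest was Cnn1, with a log2 response of 2.03 in WT and 0.70 in Y428F cells and a difference of -1.33. Acta2 followed with 2.19 and 1.17, a difference of -1.02. Tagln had responses of 1.82 and 1.26, a difference of -0.55 (adjusted p = 0.0289). Tpm1 had 0.80 and 0.46, a difference of -0.34 (adjusted p = 0.0344). For Tgfb1i1 the responses were 0.68 and 0.19, a difference of -0.49 (adjusted p = 0.0112), and for Adamts1 they were 0.73 and 0.16, a difference of -0.57 (adjusted p = 0.0162). Bhlhe40 and Junb differed in the other direction. Bhlhe40 had 0.11 and 0.72, a difference of 0.61 (adjusted p = 0.00997), and Junb had -0.13 and 0.55, a difference of 0.69 (adjusted p = 0.0215). The call was lost in 5 of 12 fits without 1 library for Adamts1 (adjusted p from 0.00302 to 0.0605) and in 6 of 12 for Junb (0.000244 to 0.0794), and in none for Acta2, Cnn1 or Bhlhe40. It was lost in 9 of 12 such fits for Tagln (0.00685 to 0.126), in 8 for Tpm1 (0.0143 to 0.145) and in 1 for Tgfb1i1 (0.00572 to 0.05001). With a GC correction Tagln had an adjusted p of 0.0549.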

How the results depend on the processing

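Of 387 alternative values for the 19 called results of single members, 0 reversed and 27 lost the call, and of 522 for the 26 uncalled results 10 reversed and 29 gained it. For 68 results of named list genes, 0 of 1388 reversed and 85 lost the call. The number of members called with PTH in Y428F cells, 3, became 5 with DESeq2, library totals, an exon length correction or the Y428F libraries alone, and 1 at an adjusted p under 0.01 with a log2 change beyond 0.3. Under that rule 4 members in place of 7 were called between the lines with vehicle. With 1 library left out, 3 to 5 members were called for PTH in WT cells, 1 to 5 in Y428F cells, 7 between lines with vehicle, 5 to 7 with PTH, and 0 for the difference. For the difference in response, 52 genes were called higher and 72 lower with DESeq2 and 96 and 120 with no filter on low counts, in place of 30 and 43.

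Under the stricter rule the called counts of the pathway lists also shrank by over 1.5 times, for target genes of the difference from 7 to 3, for the SMAD2/3 branch in Y428F cells with PTH from 6 to 2, for latency genes there from 5 to 2 (3 with a GC correction), and for receptor partners there from 5 to 1. Receptor partners called between the lines numbered 7 in place of 12 with vehicle and 5 in place of 9 with PTH, and those of the SMAD2/3 branch 4 in place of 7 with PTH. In WT cells with PTH the called receptor partners went from 2 to 0 with library totals or the stricter rule and to 1 with a GC correction, and the SMAD2/3 branch went from 2 to 1 with DESeq2, library totals, the stricter rule or the replicate block. In the difference, latency genes went from 1 to 0 under the stricter rule and to 2 with no filter, receptor partners from 0 to 1 with no filter, and the SMAD2/3 branch from 0 to 1 with DESeq2, at least 10 counts in every library or an exon length correction.

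With library totals Tgfb1 (-0.0061) and Eng (-0.0049) turned negative for PTH in WT cells, and higher genes made up 38.0% in place of 58.4% of calls there and 38.1% in place of 53.4% in Y428F cells. Leaving out 1 library gave ranges across zero for Tgfb1 in WT cells (-0.018 to 0.11), Ltbp1 in Y428F cells (-0.023 to 0.14), and the difference in response of Tgfb2 (-0.027 to 0.15), Ltbp1 (-0.11 to 0.052) and Ltbp3 (-0.17 to 0.020). The causes were not tested. The longest transcript in place of all exons raised levels by 1.03-fold (Tgfbr2) to 1.98-fold (Tgfb1). The lengths behind the ligand shares were varied after seeing the data.

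Same-numbered libraries did not deviate together on average (mean r 0.0022 over 18 pairs, from -0.15 to 0.24), though 4 of the pairs were above 0.1. The numbers were not taken as pairs. With the replicate block 3, 4, 7, 6 and 0 members were called in the 5 comparisons.

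With 3 libraries per group, small changes can be missed. Transcript levels give neither protein nor activated ligand.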
